A study of Mus musculus with 25 samples.

Results

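Slc7a11, Gclc, Gclm, Gss and Gsr carry a cell from imported cystine to reduced glutathione. They were taken by symbol from the array's annotation, and are 5 of the 18193 genes measured by a probe set of a single symbol. All 10 probe sets annotated to them (2 per gene, of 45037 tested) were used, and none is shared with another symbol. The arrays hold RNA of RAW 264.7 cells, a mouse macrophage line transformed by Abelson leukaemia virus, kept for 6 h in medium with hypochlorous acid (HOCl), a chlorinating oxidant released by activated neutrophils. There were 4 arrays at 0 mM. The 7 treated groups, of 3 arrays each, had 0.14 mM, 0.35 mM or 0.7 mM at the low end, 1.4 mM or 2.1 mM in the middle, and 2.8 mM or 3.5 mM at the top, which makes 8 doses and 25 arrays. Every group was the same line in the same serum-supplemented medium, so the results are those of 1 transformed line and not of primary macrophages. The labels call the replicates biological. The submitters' design text gives 3 of them, while 0 mM has 4 arrays.

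Glutathione is a tripeptide of glutamate, cysteine and glycine that reduces peroxides and forms conjugates with electrophiles. Slc7a11 is the transport subunit of the cystine/glutamate exchanger xCT, and cystine is reduced to cysteine inside the cell. Gclc is the catalytic and Gclm the modifier subunit of glutamate-cysteine ligase, the rate-limiting enzyme; Gss, glutathione synthetase, adds the glycine; Gsr, glutathione reductase, returns the oxidized disulfide to glutathione with NADPH. Slc7a11, Gclc, Gclm and Gsr are textbook targets of NRF2, the transcription factor that binds antioxidant response elements when oxidants or electrophiles block its degradation. Slc7a11 is also a target of ATF4, the factor of the amino acid response. In macrophages xCT is known to be induced by oxidants and by bacterial lipopolysaccharide.

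Promoter sequences are shown because most of these genes are known NRF2 targets and Slc7a11 is also a target of ATF4. RefSeq windows of 250 bases before the annotated start (build GRCm38.p6, 5′ to 3′ on the gene's strand) matched 3 of the 5 genes, Slc7a11, Gclm and Gss. Capitals mark matches, on either strand, to TGACNNNGC or TGAGNNNGC, 2 forms of the antioxidant response element core, or to TGATGNAA, the core of the ATF4 site. Each sequence is written on its own line.

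Slc7a11, chr3:50443614-50443863, minus strand: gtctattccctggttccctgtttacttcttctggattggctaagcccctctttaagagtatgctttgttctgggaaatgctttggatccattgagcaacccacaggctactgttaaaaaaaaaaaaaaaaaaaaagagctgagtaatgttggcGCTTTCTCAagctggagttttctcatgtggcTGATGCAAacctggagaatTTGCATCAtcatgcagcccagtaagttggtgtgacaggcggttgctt

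Gclm, chr3:122245307-122245556, plus strand: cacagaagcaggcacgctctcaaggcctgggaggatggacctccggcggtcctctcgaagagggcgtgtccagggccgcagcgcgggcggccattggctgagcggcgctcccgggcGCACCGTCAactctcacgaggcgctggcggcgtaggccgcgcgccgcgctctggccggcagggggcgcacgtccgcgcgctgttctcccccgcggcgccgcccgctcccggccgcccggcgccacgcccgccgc

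Gss, chr2:155592811-155593060, minus strand: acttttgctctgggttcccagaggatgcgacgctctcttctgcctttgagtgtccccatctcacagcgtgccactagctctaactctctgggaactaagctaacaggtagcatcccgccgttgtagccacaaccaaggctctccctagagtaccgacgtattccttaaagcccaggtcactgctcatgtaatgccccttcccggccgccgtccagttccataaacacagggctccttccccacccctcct

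The Slc7a11 window held 2 matches to TGATGNAA, one on the gene's strand 66 to 59 bases before the start and one on the opposite strand at 47 to 40. Of 32851 windows of the same length 3.45% held this motif, and 13 (0.0396%) held 2 or more matches. The window also held 1 match to TGAGNNNGC on the opposite strand, 97 to 89 bases before the start, a form found in 14.4% of windows. The Gclm window held 1 match to TGACNNNGC on the opposite strand at 134 to 126 bases, a form found in 10.2% of windows. The Gss window held none of the 3 patterns. These are matches of letters, not binding sites, and either response element form occurs in 23.0% of all windows. Base composition differed as well: GC content was 43.2% in the Slc7a11 window, 78.4% in that of Gclm and 56.0% in that of Gss, against a median of 52.4% over all windows.

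On GRCm38.p6 the genes span chr3:50364936-50499087 (Slc7a11), chr9:77754535-77794489 (Gclc), chr3:122245487-122267215 (Gclm), chr2:155563181-155592810 (Gss) and chr8:33653238-33698162 (Gsr). The Slc7a11 window lies inside the span annotated for that gene. Gclc and Gsr are named only.

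Values are log2 signals of a probe set with the median of each array at 0. The number of arrays limits their precision. Tests are moderated limma tests with a mean per dose over all 25 arrays, and p-values were adjusted by Benjamini-Hochberg over all 45037 probe sets. A change is called where that adjusted p is under 0.05. Each gene is represented by its brightest probe set, and the other one is given beside it. The 7 comparisons with 0 mM share the same 4 arrays. Levels of different genes come from different probes and are not compared. RNA came from whole cultures, where a lower signal from fewer responding cells and one from less RNA per cell cannot be told apart.

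The arrays fell into 2 sets by a technical measure that the labels do not name. Signals of 8 control probe sets, which read the 5′ part of bacterial poly-A transcripts spiked into the RNA, averaged at most 1.12 on 11 arrays. These were every array of 0 mM and 0.14 mM, and of 0.35 mM and 0.7 mM the first 2 replicates. The average was at least 1.75 on the other 14 arrays, called the high spike level here. From 1.4 mM upward spike level and dose cannot be told apart, except through replicate 3 of 0.35 and 0.7 mM. Comparisons among the doses from 1.4 to 3.5 mM lie wholly within the high level. Over all probe sets 11 of the 25 arrays were most like an array of another dose. They include every array of 0.7 and 1.4 mM, replicates 1 and 3 of 0 mM, replicate 3 of 0.35 mM and replicate 1 of 2.8 and of 3.5 mM. Counts of called members at 0.7 and 2.8 mM are also given without replicate 3 of 0.7 mM and replicate 1 of 2.8 mM. The 3′ minus 5′ signal of Actb ranged over the arrays between 0.12 and 0.68 and that of Gapdh between -0.11 and 0.36. Replicate 1 of 0 mM held both the lowest Actb and the highest Gapdh value (Gapdh on all others at most -0.0084), and also had the lowest mean correlation with its own dose (0.957). This array enters all 7 comparisons with 0 mM, and no call of a member against 0 mM changed without it. The macrophage markers Lyz2, Cd14, Csf1r and Cd68 ranked at or above percentile 99.2 of an array's probe sets in the median. The other macrophage markers, Fcgr1, Itgam and Adgre1, ranked at 92.4, 86.9 and 81.7. Cd3e, Epcam, Col1a1, Pecam1, Alb and Flt3 ranked between 29.1 and 73.5, and 0 of these 6 was called at any dose. The mean of the 7 macrophage markers lay between 5.32 and 5.92 on every array, and that of the 6 others between 0.18 and 0.63. The macrophage markers called were Adgre1 (-1.29 at 0.35 mM and -1.07 at 2.1 mM), Cd14 (0.66 at 0.35 mM) and Fcgr1 (-1.38 at 2.1 mM), and their part in the results was not tested.

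The 5 genes did not follow a single course over the doses. Slc7a11 and Gclm had the largest changes. At 2.1 mM the brightest probe set had at least 36.5-fold for Slc7a11 and 12.8-fold for Gclm. The second probe set had at least 16.1-fold for Slc7a11 and 4.52-fold for Gclm. Neither gene was called at 3.5 mM. Gsr and Gclc rose by less and over fewer doses, and Gss rose 1.65-fold at 2.1 mM. The F test over the 7 doses called all 5, where it called 28% of all genes (limma, adjusted p between 1.03e-06 for Gclm and 0.00359 for Gsr). No dose had a member called lower than 0 mM, except in alternative fits for Gclc at 3.5 mM (-0.78 on the compared arrays alone, limma, adjusted p = 0.0344) and, with array weights, Gss at 0.14 mM (-0.46, adjusted p = 0.00047) and Gclc at 3.5 mM (-0.74, adjusted p = 0.0385).

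**Figure D1:**
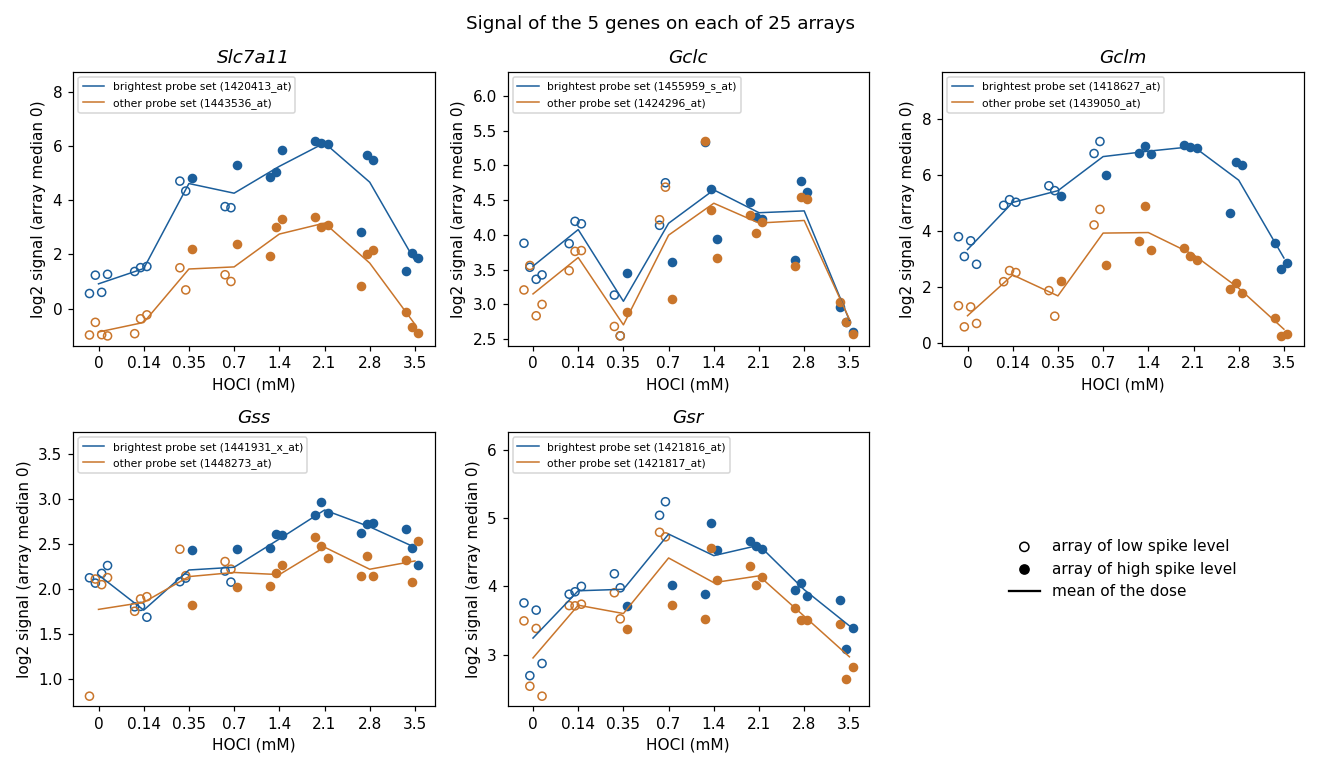
Log2 signal (vertical axis, array median 0) of both probe sets of each gene on every array, by HOCl dose in mM. Points are arrays, open for the low and filled for the high spike level, and lines join dose means. By the brightest probe sets Slc7a11 and Gclm stand high between 0.35 and 2.8 mM and low at 3.5 mM. The second Gclm probe set has means of 1.68 at 0.35 mM and 1.96 at 2.8 mM, both below its 2.43 at 0.14 mM.

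Slc7a11, the importer, had 2 large steps between neighbouring doses, a rise at 0.35 mM and a fall at 3.5 mM. Its signal (probe set 1420413_at) was 0.56, 1.24, 0.60 and 1.27 on the 4 arrays at 0 mM, and 1.37, 1.51 and 1.55 at 0.14 mM. It was 4.70, 4.33 and 4.80 at 0.35 mM, and 3.76, 3.72 and 5.28 at 0.7 mM. At 1.4 mM it was 4.86, 5.02 and 5.86, and at 2.1 mM 6.16, 6.09 and 6.07. Every array between 0.35 and 2.1 mM lay far above every array of the 2 lowest doses, and the 2.1 mM arrays were the highest and nearly equal. At 2.8 mM the arrays had 2.83, 5.67 and 5.48, and at 3.5 mM 1.40, 2.05 and 1.85. Replicate 1 of 2.8 mM was thus far below its fellows, and the 3.5 mM arrays were just above the 0 mM arrays without overlapping them. The deposited values hold no detection calls. The 0 mM signal lay within or below the range over the arrays of Flt3 (0.79 to 1.51), a marker of other cell types. Against Cd3e (0.82 to 1.21), another such marker, replicates 2 and 4 of 0 mM lay just above the range and replicates 1 and 3 below it. The 0 mM signal of Slc7a11 may therefore not be above background, and folds of Slc7a11 against 0 mM are given as lower bounds.

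Against 0 mM the log2 change of Slc7a11 was 0.56 at 0.14 mM (limma, SE 0.487, adjusted p = 0.746), which was not called. It was called at each of the 5 doses between 0.35 and 2.8 mM. The change was 3.69 at 0.35 mM (at least 12.9-fold, adjusted p = 0.00235), 3.34 at 0.7 mM (adjusted p = 0.00346) and 4.33 at 1.4 mM (adjusted p = 7.09e-05). It was 5.19 at 2.1 mM (at least 36.5-fold, adjusted p = 8.17e-06) and 3.75 at 2.8 mM (adjusted p = 0.000159), all with the same SE. At 3.5 mM the change was 0.85 and not called (adjusted p = 0.281). The step at 0.35 mM against 0.14 mM was 3.13 (adjusted p = 0.00815), and the fall at 3.5 mM against 2.8 mM was -2.89 (adjusted p = 0.00133). Placed in order of their means, the doses run 0, 0.14, 3.5, 0.7, 0.35, 2.8, 1.4 and 2.1 mM. Among neighbours in that order only 3.5 mM and 0.7 mM differed by the test (limma, adjusted p = 0.00496), a comparison in which 4.98% of all genes were called lower at 3.5 mM.

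The second Slc7a11 probe set, 1443536_at, correlated with the first at r = 0.963 over the 25 arrays, which share dose. Its changes were smaller, 2.32 at 0.35 mM (adjusted p = 0.00527) and 4.01 at 2.1 mM (adjusted p = 1.02e-05), and it was called at the same 5 doses. At 0.14 mM and at 3.5 mM its arrays overlapped those of 0 mM. The rise at 0.35 mM was present within the low spike level, at 3.60 over 2 and 4 arrays (limma, adjusted p = 2.84e-05). With spike level as a term the change at 2.1 mM was 4.28 (adjusted p = 0.0223), while those at 1.4 mM (3.42, adjusted p = 0.147) and 2.8 mM (2.83, adjusted p = 0.077) were no longer called. Without replicate 3 of 0.7 mM the change at that dose was 2.82 (adjusted p = 0.0333), and without replicate 1 of 2.8 mM it was 4.66 there (adjusted p = 3.27e-07).

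Gclm, the modifier subunit, already lay above the untreated arrays at the lowest dose. Probe set 1418627_at gave 3.79, 3.08, 3.64 and 2.81 at 0 mM, and 4.91, 5.11 and 5.02 at 0.14 mM. It gave 5.60, 5.43 and 5.25 at 0.35 mM, and 6.76, 7.18 and 6.00 at 0.7 mM. At these doses each group lay wholly above the one before, replicate 3 of 0.7 mM being its lowest array. The signals were 6.77, 7.01 and 6.74 at 1.4 mM and 7.07, 6.98 and 6.96 at 2.1 mM. They were 4.62, 6.44 and 6.35 at 2.8 mM, and 3.58, 2.65 and 2.86 at 3.5 mM. Replicate 1 of 2.8 mM was again well below the other two, and the 3.5 mM arrays overlapped those of 0 mM.

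The log2 change of Gclm was 1.68 at 0.14 mM (limma, SE 0.348), with all 3 arrays above all 4 of 0 mM. It was not called after adjustment over all probe sets (adjusted p = 0.197, unadjusted p = 0.000102), a comparison in which 0.011% of all genes were called higher. It was called at 0.35 mM (2.10, adjusted p = 0.005), 0.7 mM (3.32, adjusted p = 0.000109) and 1.4 mM (3.51, adjusted p = 3.17e-05). It was called also at 2.1 mM (3.67, 12.8-fold, adjusted p = 8.27e-06) and 2.8 mM (2.47, adjusted p = 0.000241), but not at 3.5 mM (-0.30, adjusted p = 0.625). No step to a next higher dose was called except 3.5 against 2.8 mM, where the change was -2.77 (adjusted p = 0.000105). In order of its means the doses run 3.5 mM, 0 mM, 0.14 mM, 0.35 mM, 2.8 mM, 0.7 mM, 1.4 mM and 2.1 mM, and no neighbours in that order differed by the test.

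The second Gclm probe set, 1439050_at, followed the first less closely (r = 0.873 over 25 arrays). It was called higher at 0.7 mM (2.95, adjusted p = 0.00171), 1.4 mM (2.97, adjusted p = 0.000326) and 2.1 mM (2.18, adjusted p = 0.00154). At 0.35 mM it had 0.71 (adjusted p = 0.303) and at 2.8 mM 0.98 (adjusted p = 0.114), so the calls of Gclm at these 2 doses rest on the brighter probe set. Within the low spike level the brighter one had 2.19 at 0.35 mM (adjusted p = 0.00249) and 3.64 at 0.7 mM (adjusted p = 0.00171). With spike level as a term it stayed past the threshold at 1.4 mM (4.13, adjusted p = 0.00265), 2.1 mM (4.29, adjusted p = 0.00146) and 2.8 mM (3.09, adjusted p = 0.0202).

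Gclc, the catalytic subunit, was called higher than at 0 mM at 1.4 mM, a call that several alternatives did not keep. Probe set 1455959_s_at gave 3.88, 3.53, 3.36 and 3.43 at 0 mM, and 3.87, 4.19 and 4.16 at 0.14 mM. It gave 3.14, 2.55 and 3.45 at 0.35 mM, and 4.14, 4.75 and 3.61 at 0.7 mM. The 0.35 mM arrays lay below the 0.14 mM arrays without overlap, on a dose where Slc7a11 and Gclm were called higher. The signals were 5.34, 4.66 and 3.93 at 1.4 mM, and 4.47, 4.26 and 4.23 at 2.1 mM. They were 3.63, 4.78 and 4.62 at 2.8 mM, and 2.96, 2.75 and 2.61 at 3.5 mM, where all 3 lay below every 0 mM array. The 1.4 mM arrays were widely spread.

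The log2 change of Gclc against 0 mM was 0.53 at 0.14 mM (limma, SE 0.307, adjusted p = 0.621), -0.50 at 0.35 mM (adjusted p = 0.349) and 0.62 at 0.7 mM (adjusted p = 0.453). It was 1.10 at 1.4 mM (adjusted p = 0.0335), 0.77 at 2.1 mM (adjusted p = 0.105) and 0.79 at 2.8 mM (adjusted p = 0.0998). At 3.5 mM it was -0.78 (adjusted p = 0.117). Larger differences lay between doses: 1.60 at 1.4 mM against 0.35 mM (adjusted p = 0.0282), where 1.52% of all genes were called higher, and -1.57 at 3.5 mM against 2.8 mM (adjusted p = 0.00389). The call at 1.4 mM was lost without replicate 1 (adjusted p = 0.179) or 2 (adjusted p = 0.0852) of that dose, and without any of replicates 2, 3 and 4 of 0 mM (adjusted p between 0.0572 and 0.0741). It was lost also with spike level as a term (1.21, adjusted p = 0.538). On the arrays of the doses compared alone it was not called at 1.4 mM (adjusted p = 0.117), and Gclc was called higher at 2.1 mM (0.77, adjusted p = 0.0109) and lower at 3.5 mM (-0.78, adjusted p = 0.0344). Without replicate 1 of 2.8 mM the change at 2.8 mM was 1.15 and called (adjusted p = 0.0181).

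The second Gclc probe set, 1424296_at, gave a similar course (r = 0.955 over 25 arrays), with 1.30 at 1.4 mM (adjusted p = 0.0251) as its only call against 0 mM. At 3.5 mM its change was -0.36 (limma, adjusted p = 0.534). There, unlike in the first probe set, its arrays overlapped those of 0 mM. Within the low spike level, Gclc was lower at 0.35 mM than at 0.14 mM by the test (-1.23, adjusted p = 0.0221), and higher at 0.7 mM than at 0.35 mM (1.60, adjusted p = 0.0209). In the fit over all arrays neither step was called. In order of means the doses run 3.5, 0.35, 0, 0.14, 0.7, 2.1, 2.8 and 1.4 mM, and no neighbours in that order differed by the test.

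Gss, which completes the tripeptide, had small and even changes. Probe set 1441931_x_at gave 2.13, 2.07, 2.18 and 2.26 at 0 mM, and 1.80, 1.81 and 1.69 at 0.14 mM. It gave 2.08, 2.12 and 2.43 at 0.35 mM, and 2.20, 2.08 and 2.45 at 0.7 mM. The 0.14 mM arrays were below all others of these 4 doses, and replicate 3, of the high spike level, was the highest array of 0.35 and of 0.7 mM. At 1.4 mM it gave 2.46, 2.61 and 2.60, and at 2.1 mM 2.82, 2.97 and 2.84. At 2.8 mM it gave 2.63, 2.72 and 2.73, and at 3.5 mM 2.67, 2.46 and 2.27. All 12 arrays from 1.4 mM upward lay above every 0 mM array, the lowest of them by little.

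Against 0 mM the log2 change of Gss was -0.39 at 0.14 mM (limma, SE 0.104, adjusted p = 0.351), 0.06 at 0.35 mM and 0.09 at 0.7 mM. It was called at 1.4 mM (0.40, adjusted p = 0.0242), 2.1 mM (0.72, 1.65-fold, adjusted p = 0.000344) and 2.8 mM (0.54, adjusted p = 0.0027), and at 3.5 mM it was 0.31 (adjusted p = 0.0691). These calls coincide with the high spike level. With spike level as a term the change was 0.40 at 2.1 mM (adjusted p = 0.244) and 0.21 at 2.8 mM (adjusted p = 0.434). The suffix x of this probe set means that some of its probes also match other transcripts. The second probe set, 1448273_at, correlated with it at r = 0.453 and was not called by the F test (adjusted p = 0.231). It was called at 2.1 mM alone (0.69, adjusted p = 0.0485), and its replicate 1 of 0 mM stood at 0.81 where the other 0 mM arrays had 2.11, 2.05 and 2.13. By the means of the brighter probe set the doses run 0.14 mM, 0 mM, 0.35 mM, 0.7 mM, 3.5 mM, 1.4 mM, 2.8 mM and 2.1 mM, and no neighbours in that order differed by the test.

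Gsr, the reductase, had its highest mean at 0.7 mM. Probe set 1421816_at gave 3.76, 2.70, 3.65 and 2.87 at 0 mM, and 3.89, 3.92 and 4.00 at 0.14 mM. It gave 4.18, 3.98 and 3.71 at 0.35 mM, and 5.04, 5.24 and 4.02 at 0.7 mM. The untreated arrays differed among themselves, replicates 1 and 3 standing near the 0.14 mM arrays and replicates 2 and 4 well below, and replicate 3 of 0.7 mM stood apart from its fellows. At 1.4 mM the signals were 3.89, 4.93 and 4.53, and at 2.1 mM 4.66, 4.60 and 4.55. At 2.8 mM they were 3.95, 4.05 and 3.85, and at 3.5 mM 3.80, 3.08 and 3.39, within or close to the 0 mM range.

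The log2 change of Gsr was 0.69 at 0.14 mM (limma, SE 0.284, adjusted p = 0.51) and 0.71 at 0.35 mM (adjusted p = 0.139). It was called at 0.7 mM (1.52, 2.87-fold, adjusted p = 0.0318), 1.4 mM (1.20, adjusted p = 0.0144) and 2.1 mM (1.36, adjusted p = 0.00392). It was 0.71 at 2.8 mM (adjusted p = 0.114) and 0.18 at 3.5 mM (adjusted p = 0.733). The second probe set, 1421817_at, gave the same 3 calls (r = 0.981 over 25 arrays). The call at 0.7 mM was lost without replicate 2 (adjusted p = 0.133) or 4 (adjusted p = 0.142) of 0 mM, replicate 1 (adjusted p = 0.142) or 2 (adjusted p = 0.244) of 0.7 mM, replicate 2 (0.0508) or 3 (0.0515) of 0.14 mM, or replicate 2 of 2.1 mM (0.0525). Within the low spike level it was 1.89 (adjusted p = 0.0645). With spike level as a term the change was 1.77 at 0.7 mM (adjusted p = 0.00679), 1.95 at 1.4 mM (adjusted p = 0.0927, no longer called) and 2.10 at 2.1 mM (adjusted p = 0.0317). Ordered by mean the doses run 0 mM, 3.5 mM, 0.14 mM, 2.8 mM, 0.35 mM, 1.4 mM, 2.1 mM and 0.7 mM, again with no neighbours that differed by the test.

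**Figure D2:**
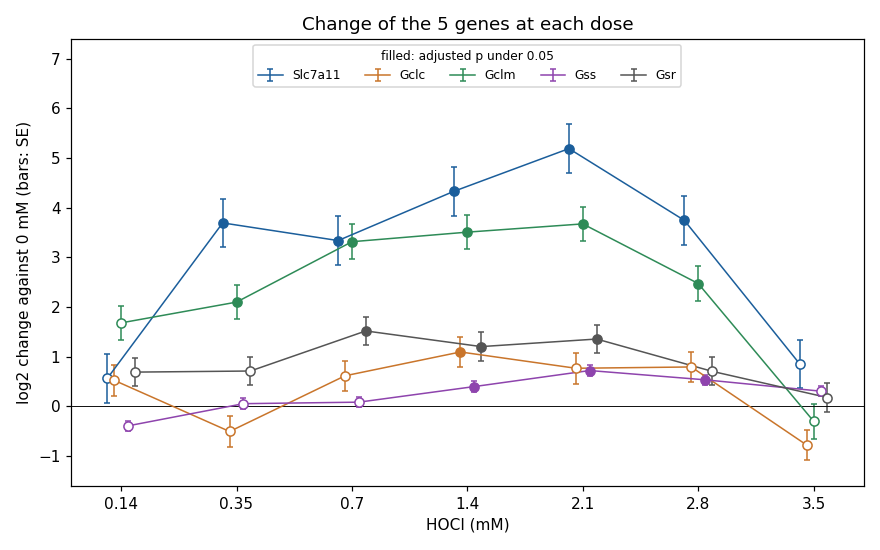
Log2 change of the brightest probe set of each gene (vertical axis, dose minus 0 mM; bars are the SE of the limma fit, n = 3 arrays against 4) by HOCl dose in mM. Filled points have an adjusted p under 0.05; Slc7a11 reaches 5.19 and Gclm 3.67 at 2.1 mM, and no point at 0.14 or 3.5 mM is filled.

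Counted over the 5 genes, the number of calls differed between doses. None was called higher at 0.14 mM, 2 at 0.35 mM (Slc7a11 and Gclm, where 2.12% of all genes were called higher) and 3 at 0.7 mM (with Gsr, background 0.148%). All 5 were called at 1.4 mM (background 3.85%), 4 at 2.1 mM (all but Gclc, background 7.32%), 3 at 2.8 mM (Slc7a11, Gclm and Gss, background 5.68%) and 0 at 3.5 mM (background 4.54%). By unadjusted p under 0.05 in limma, 2 were higher and 1 lower at 0.14 mM, where 4.02% and 4.78% of all genes were. At 3.5 mM 1 was higher and 1 lower, where 16.5% and 8.96% of all genes were. The median log2 change of the 5 was 0.56, 0.71, 1.52, 1.20, 1.36, 0.79 and 0.18 from the lowest dose to the highest. The median over all genes lay between -0.01 and 0.10 at these doses. Without replicate 3 of 0.7 mM the count there was 3, with 0.104% of all genes called higher, and without replicate 1 of 2.8 mM it was 4 there, with 5.7%. The count of 5 at 1.4 mM was 2 without replicate 2 of that dose, 3 without replicate 2 of 0 mM, 2 on the arrays of 0 and 1.4 mM alone, 3 with the replicate block and 1 with spike level as a term. At 2.1 mM it was 4 in every omission of 1 array, and 3 with spike level as a term. A fit on the arrays of 0 and 0.7 mM alone called none of the 5 at 0.7 mM, with adjusted p of 0.188 for Slc7a11, 0.0932 for Gclm and 0.708 for Gsr. The share of all genes called in this fit, and in the alternatives at 1.4 and 2.1 mM, is not given here.

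At 0.14 mM, where none was called, 4 of the 5 genes had arrays that did not overlap those of 0 mM. Slc7a11, Gclm and Gsr lay higher, as did 4.25% of all genes, and Gss lower, as did 5.1%. By the second probe sets Gclm and Gsr also lay higher without overlap. Those of Slc7a11 and Gss overlapped 0 mM, and the second Gss probe set had a change of 0.08. At 3.5 mM the arrays of 3 genes did not overlap those of 0 mM. Slc7a11 and Gss lay higher, as did 12.6% of all genes, and Gclc lower, as did 6.75%. In the second probe sets of these 3 genes the 3.5 mM arrays overlapped those of 0 mM.

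The highest dose differed from the middle of the series. At 3.5 mM against 1.4 mM 4 of the 5 genes were called lower, where 7.18% of all genes were. Slc7a11 differed by -3.47 (limma, SE 0.52, adjusted p = 0.000169), Gclm by -3.81 (SE 0.372, adjusted p = 2.24e-06), Gclc by -1.87 (SE 0.328, adjusted p = 0.00067) and Gsr by -1.03 (SE 0.304, adjusted p = 0.0265). Gss had -0.09 and was not called. All of these arrays are of the high spike level, and in a fit on that level alone the adjusted p were 0.00328, 0.000234, 0.00446 and 0.0135 in the same order. The call of Gsr was lost without replicate 2 (adjusted p = 0.135) or 3 (0.074) of 1.4 mM, or 2 (0.117) or 3 (0.0791) of 3.5 mM.

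Over the 7 steps between neighbouring doses the members had 5 calls. At the steps to 0.7, 1.4 and 2.1 mM limma called 0% of all genes, and at that to 2.8 mM 0.033%, and no member was among those called. By unadjusted p under 0.05, 3, 1 and 1 of the 5 genes were higher at the steps to 0.7, 1.4 and 2.1 mM, where 5.12%, 3.73% and 1.68% of all genes were. At 2.8 against 2.1 mM 3 were lower, where 4.62% of all genes were. At 0.35 against 0.14 mM Slc7a11 and Gss (0.45, adjusted p = 0.0331) were called higher, where 1.39% of all genes were. At 3.5 against 2.8 mM Slc7a11, Gclc and Gclm were called lower, where 5.33% of all genes were. Without replicate 1 of 2.8 mM the same 3 were called, at -3.81, -1.93 and -3.36. The call of Slc7a11 at 0.35 against 0.14 mM was lost without replicate 2 (adjusted p = 0.059) or 3 (0.0592) of 0.14 mM. That of Gss was lost without any 0.14 mM array or without replicate 2 or 3 of 0.35 mM (adjusted p between 0.0629 and 0.151), and within the low spike level (0.34, adjusted p = 0.124).

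The genes did not change in proportion. For each of the 10 pairs the difference between their log2 signals was taken on every array, and its variation over the 8 doses was tested with an F statistic and 100000 permutations of the arrays' dose labels. All 10 pairs had an adjusted p under 0.05 (Benjamini-Hochberg over the pairs). A difference within an array shows unequal change of these probe sets and not that either gene stayed the same. Differences with Slc7a11 share the limit of its 0 mM signal, which may not be above background. Probe sets of a single gene could differ too. At 0.35 mM the 2 of Gclm had changes of 2.10 and 0.71 against 0 mM, while those of Gsr had 0.71 and 0.65. Such differences within a gene were not tested, so the result holds for these probe sets.

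Slc7a11 and Gclc differed widely. Their difference, set to a mean of 0 at 0 mM, was 0.04 at 0.14 mM and 4.20 at 0.35 mM, with arrays between 3.98 and 4.42 at 0.35 mM. It was 2.72 at 0.7 mM (1.61 to 4.30), 3.23 at 1.4 mM (2.15 to 4.56) and 4.42 at 2.1 mM (4.32 to 4.47). It was 2.95 at 2.8 mM (1.83 to 3.53) and 1.63 at 3.5 mM (1.08 to 1.94; F = 15.8, permutation test, adjusted p = 4e-05, n = 25). No array from 0.35 mM upward fell within the range of the 0 mM arrays (-0.69 to 0.48), and the high values at 0.7 and 1.4 mM are those of replicate 3.

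The 2 subunits of glutamate-cysteine ligase also differed. Gclm minus Gclc was 1.16 at 0.14 mM, 2.61 at 0.35 mM, 2.70 at 0.7 mM, 2.41 at 1.4 mM, 2.91 at 2.1 mM, 1.68 at 2.8 mM and 0.48 at 3.5 mM, relative to 0 mM (F = 25.3, permutation test, adjusted p = 2.5e-05, n = 25). The permutation p of 1e-05 is the smallest that 100000 permutations can give. All arrays of 0.14 to 2.8 mM lay above the 0 mM range. By the brightest probe sets the modifier subunit therefore had the larger change at each dose up to 2.8 mM on every array. By the second probe sets its mean change was larger up to 2.1 mM. At 2.8 mM these had 0.98 for Gclm and 1.06 for Gclc.

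The mean of Slc7a11 minus Gclm changed sign over the doses, with -1.12 at 0.14 mM, 1.59 at 0.35 mM, 0.02 at 0.7 mM, 0.82 at 1.4 mM, 1.52 at 2.1 mM, 1.27 at 2.8 mM and 1.15 at 3.5 mM (F = 4.92, permutation test, adjusted p = 0.006, n = 25). The 0 mM arrays ranged between -0.82 and 0.88, which takes in the means at 0.7 and 1.4 mM. At 0.14 mM the Slc7a11 signal (1.37 to 1.55) was still close to the range of Flt3 (0.79 to 1.51). The sign at that dose is therefore uncertain. At 0.7 mM the arrays were split: replicate 3, of the high spike level, had 1.70, and the lowest array had -1.05. The weakest of the 10 pairs was Gclc with Gsr (permutation test, adjusted p = 0.0448). It passed the threshold in only 7 of 25 omissions of a single array (adjusted p up to 0.104 in the others). With the probe set of largest variance for each gene it did not pass (permutation test, adjusted p = 0.11).

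**Figure D3:**
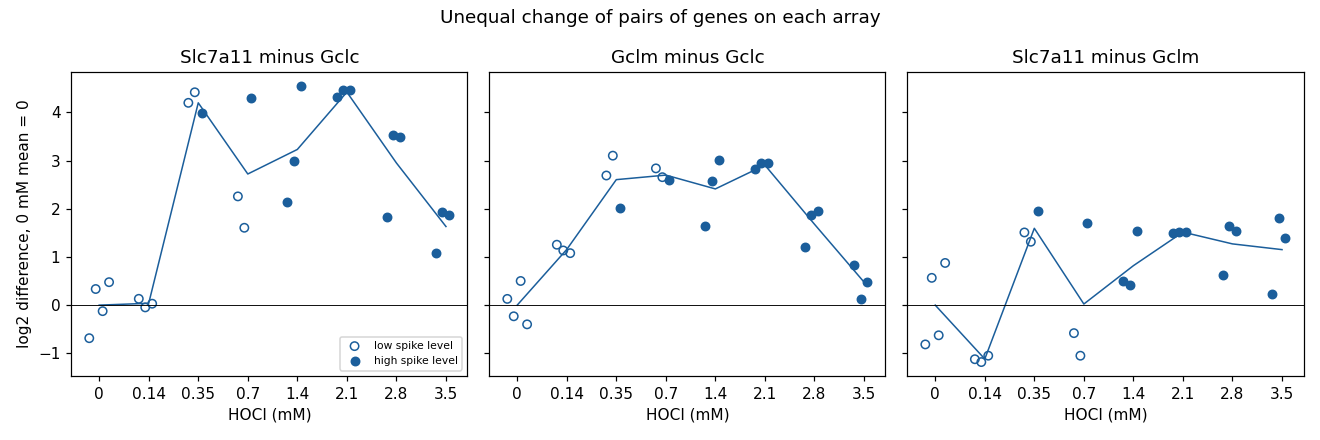
Difference between the log2 signals of 2 genes on each array (vertical axis, mean of the 0 mM arrays set to 0) by HOCl dose in mM, for 3 pairs. Points are arrays, open for the low and filled for the high spike level, and lines join dose means; Slc7a11 minus Gclc is between 3.98 and 4.42 at 0.35 mM.

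Other genes around glutathione were taken from lists, all described by their calls against 0 mM in the same fit. From 1.4 mM upward their changes, too, coincide with the high spike level, whose part in them was not tested. The first list held 9 genes of cysteine supply and partner transporters, 7 of them measured. Over the 7 doses 2 calls fell in it. Slc3a2, the heavy chain that anchors xCT in the membrane, rose at 2.1 mM (0.71, limma, adjusted p = 0.0354), where 7.32% of all genes were called higher. Slc38a2, a neutral amino acid transporter, fell at 3.5 mM (-1.59, adjusted p = 1.04e-05), where 4.83% of all genes were called lower. Slc1a4, which carries alanine, serine and cysteine, was not called at any dose (-0.69 to 0.63). Cth, which makes cysteine from cystathionine, had 2.15 at 0.35 mM and was not called (adjusted p = 0.0901). The partner of Slc7a11 in xCT thus had a largest change of 0.71 where Slc7a11 had 5.19.

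Of 10 genes of glutathione turnover 9 were measured, and 2 were called higher at 0.35 mM (2.12% of all genes), 3 at 2.1 mM (7.32%), 1 at 2.8 mM (5.68%) and none lower. Chac1, which cleaves glutathione inside the cell, rose at 0.35 mM (1.70, limma, adjusted p = 0.0373) and at 2.1 mM (1.59, adjusted p = 0.0303). Anpep, a surface aminopeptidase that can cleave cysteinylglycine, rose at 0.35 mM (2.55, adjusted p = 0.013). Lap3, a leucine aminopeptidase, rose at 2.1 mM (0.52, adjusted p = 0.00844) and 2.8 mM (0.61, adjusted p = 0.00355), and Cndp2, a cytosolic dipeptidase, at 2.1 mM (0.99, adjusted p = 0.00867). No probe set of a single symbol measured Ggt1.

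Among 16 genes for enzymes that use glutathione and its exporters 15 were measured, and calls went both ways. The share of all genes called is given in brackets after each count. At 0.35 mM 1 was called higher (2.12%) and 3 lower (5.56%), and at 0.7 mM 1 higher (0.148%) and 0 lower (0.0165%). At 1.4 mM 1 was higher (3.85%) and 2 lower (5.06%), and at 2.1 mM 2 were higher (7.32%) and 2 lower (8.2%). At 2.8 mM 0 were higher (5.68%) and 2 lower (8.6%), and at 3.5 mM 2 were higher (4.54%) and 1 lower (4.83%). Gpx1, a cytosolic glutathione peroxidase, fell at 0.35 mM (-0.82, limma, adjusted p = 0.00669), 1.4 mM (-0.82, adjusted p = 0.00302), 2.1 mM (-1.03, adjusted p = 0.000334) and 2.8 mM (-0.54, adjusted p = 0.0222). Gpx4, which reduces lipid peroxides, fell at the same 4 doses (-0.90, -0.70, -0.94 and -0.68, adjusted p between 0.00141 and 0.0155). Abcc1, an exporter of glutathione conjugates, rose at 0.7 mM (1.09, adjusted p = 0.0325), 1.4 mM (0.93, adjusted p = 0.00947) and 2.1 mM (0.93, adjusted p = 0.00522). Glo1, the glyoxalase that acts on a glutathione adduct, rose at 3.5 mM (0.61, adjusted p = 0.000133). Without replicate 3 of 0.7 mM none of the 15 was called at 0.7 mM, where 0.104% of all genes were called higher.

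The other NRF2 targets in the list, 8 genes with 7 measured, gave 0, 4, 5, 6, 6, 4 and 0 called higher over the doses from 0.14 to 3.5 mM. The members gave 0, 2, 3, 5, 4, 3 and 0. The share of all genes called higher at these doses was 0.011%, 2.12%, 0.148%, 3.85%, 7.32%, 5.68% and 4.54%. Hmox1, heme oxygenase 1, was called from 0.35 to 2.8 mM and was highest at 2.1 mM (3.51, limma, adjusted p = 7.76e-09). Srxn1, sulfiredoxin, had 4.21 at 2.1 mM (adjusted p = 8.17e-06), Me1, which makes NADPH from malate, 2.08 (adjusted p = 2.4e-05) and Nqo1, a quinone reductase, 1.89 (adjusted p = 0.00329). Txnrd1, thioredoxin reductase, was called higher from 0.35 to 2.8 mM and lower at 3.5 mM (-0.86, adjusted p = 0.0103). At 0.35 mM Nqo1 had 0.07 (adjusted p = 0.94), a dose where Gclc had -0.50. Its mean signal was -0.29 at 0 mM and -0.22 at 0.35 mM, below the range of Flt3 (0.79 to 1.51). Nqo1 may therefore not be above background at these doses, and its changes against 0 mM share the limit given for Slc7a11. Without replicate 3 of 0.7 mM 6 of the 7 were called higher there, where 0.104% of all genes were. Without replicate 1 of 2.8 mM 5 were called higher there, where 5.7% of all genes were.

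Of the ATF4 list, Atf4 itself and 9 target genes, all 10 were measured and none was called higher at any dose by limma. By unadjusted p under 0.05, 0 were higher at each dose from 0.14 to 2.8 mM. At 3.5 mM 2 were higher, where 16.5% of all genes were. By the same measure 2 were lower at 0.14, 0.7, 1.4, 2.1 and 2.8 mM, where 4.78% to 15.4% of all genes were. At 0.35 and 3.5 mM 1 was lower, where 14.4% and 8.96% of all genes were. The median log2 change of the list lay between -0.35 and 0.37. Atf4 had changes between -0.63 and 0.45. Phgdh, the first enzyme of serine synthesis, fell at 0.35 mM (-0.72, limma, adjusted p = 0.0361), 2.1 mM (-0.85, adjusted p = 0.00746) and 2.8 mM (-0.82, adjusted p = 0.0108). Psat1, the next enzyme of that route, had -0.39 at 2.8 mM (adjusted p = 0.051) and 0.35 at 3.5 mM (adjusted p = 0.0939). Sesn2, a stress-induced inhibitor of growth signalling, had -0.58 at 3.5 mM (adjusted p = 0.112). Without replicate 1 of 2.8 mM 2 of the 10 were called lower at 2.8 mM. The list leaves out Chac1 and Slc3a2, also known as ATF4 targets, which were called higher as given above.

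**Figure D4:**
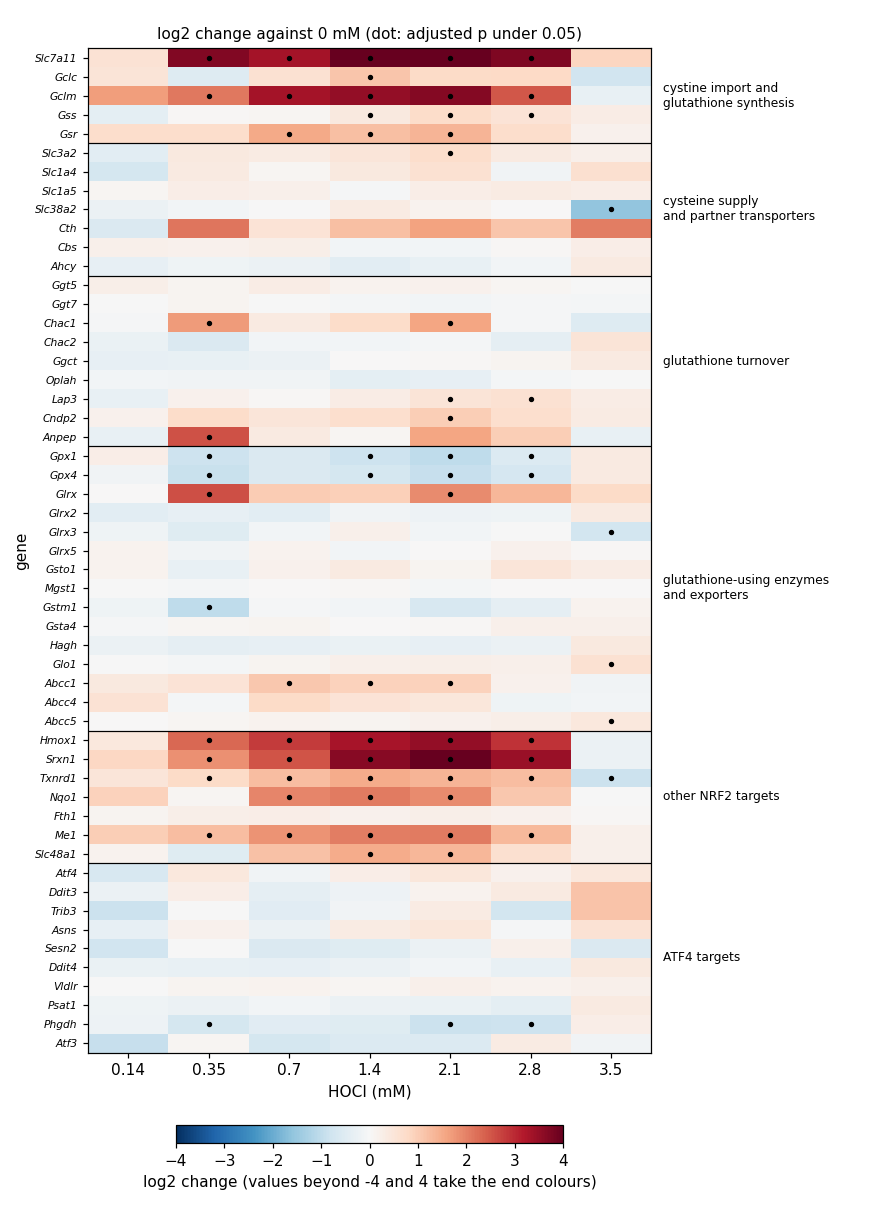
Log2 change against 0 mM (colour) of the 5 genes and the other measured genes of 5 lists (rows), by HOCl dose in mM (columns). Dots mark an adjusted p under 0.05. The NRF2 targets have 6 of 7 genes called higher at 1.4 and 2.1 mM (3.85% and 7.32% of all genes). The ATF4 list has none called higher.

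The genes most like each member were found by Pearson's r over the 25 arrays among 11526 genes with a mean above the array median. The arrays share dose, spike level and the other sources of spread, so these values are a description. Slc7a11 was most like Psmd11, a proteasome lid subunit (r = 0.968), Sqstm1, the autophagy receptor p62 (r = 0.947), and Rnf183 (r = 0.944). Gclm was most like Me1 (r = 0.973), the iron exporter Slc40a1 (r = 0.942) and Srxn1 (r = 0.932). Gsr was most like Cyb5a, cytochrome b5 (r = 0.916), Pgd, an NADPH-making enzyme of the pentose phosphate pathway (r = 0.885), and Gclm (r = 0.865). Gss was most like Ttc1 (r = 0.938), the proteasome subunit Psmd14 (r = 0.925) and Lap3 (r = 0.924). Gclc was most like the chromatin protein Brd1 (r = 0.936), the repressor Rest (r = 0.908) and the methyl-CpG-binding protein Mbd1 (r = 0.903), and no other member was among its 3 most like genes. Between the members, r was highest for Gclm with Gsr (0.865) and Slc7a11 with Gclm (0.838) and lowest for Gclc with Gss (0.223).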

How the data were processed

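RNA was hybridized to 25 Affymetrix Mouse Genome arrays. Whether the 4 arrays of 0 mM come from 4 separate cultures is not clear, as the design text gives 3 biological replicates. Per the submitters' processing notes and the labels, the authors used RMA and Array Assist, with no version given. Each deposited value is the log2 signal of a probe set, and array medians are 0. The labels do not name the base, and base 2 was inferred from the range of the values, so every fold rests on it. Of 45101 probe sets, 64 controls were set aside and no signal filter was applied. limma 3.58.1 (R 4.3.3) fitted a mean per dose to all arrays (17 residual and 2.99 prior degrees of freedom; two-sided), and the fit was tested on simulated data. p-values measure the spread between arrays pooled over doses.

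Every probe set of the 5 genes is described. Of each other list, counts cover all measured genes, and up to 4 genes with the lowest F test p plus 8 fixed ones are named (Slc3a2, Chac1, Ggt1, Hmox1, Srxn1, Txnrd1, Nqo1, Atf4). Genes, lists, markers and the division by spike level were chosen with earlier results of these data known. Symbols came from the platform annotation, where 34945 probe sets have 1 symbol, 932 several and 9160 none. Replicate numbers did not pair the arrays: of 84 same-number pairs 19 had residuals correlated above 0.1 (median -0.0256), and 5 of 24 arrays were most like arrays of their own number. Alternatives were normalization, centring, a filter on dim probe sets, variance prior, arrays in the fit, array weights, replicate block, probe set, spike level and omission of each array.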

Additional observations from a re-analysis of the deposited data

Results flagged for a closer look

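At 0 mM, replicate 1 of the second Gss probe set (1448273_at) stood at 0.81, below the other 3 arrays by 0.941 of the whole range. In the second Slc7a11 probe set (1443536_at) replicate 2 of 0 mM stood at -0.50, above the others by 0.908 of the range. The 10 probe sets were each examined at 0 mM, the only dose with 4 arrays, and chance marks about 1 in 20 such groups.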

How the results depend on the processing

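The F test called all 5 genes in every alternative run, leaving out any array included. Fitted on the arrays compared alone, 0 genes were called at 0.7 mM, 2 at 1.4 mM and 1 at 3.5 mM (Gclc, lower). With gene-by-gene array weights, chosen after seeing the data, the calls were 4 at 0.14 mM (Gclc, Gclm and Gsr higher, Gss lower), 5 at 2.8 mM, 1 at 3.5 mM (Gclc, lower) and 16 over the steps; weights over all probe sets were not run because the estimate did not converge. With spike level as a term 1 gene was called at 1.4 mM and 1 at 2.8 mM. The share of all genes called is not given for the alternatives in this section, so their counts have no background beside them. More or fewer calls of members there cannot be told apart from a general shift in calls. The replicate block gave 3 calls at 1.4 mM, losing Gclc (adjusted p = 0.0908) and Gsr (0.0597), and lost Gsr at 0.7 mM (0.221); it moved no other count by over 1.5 times. Quantile normalization lost Gclc at 1.4 mM (0.059) and Gsr at 0.7 mM (0.0669), and the trended prior lost Gss at 1.4 mM (0.0725). Changes of sign: Gss at 0.35 mM with array weights (-0.046), spike level as a term (-0.052) or the low spike level alone (-0.055); Gss at 0.7 mM with spike level as a term (-0.021) or the low level alone (-0.018); and at 3.5 mM, with spike level as a term, Gss (-0.013), Slc7a11 (-0.058) and Gclm (0.32). Leaving out 1 array, calls ranged 0 to 1 at 0.14 mM, 2 to 3 at 0.7 mM, 2 to 5 at 1.4 mM, 3 to 4 at 2.8 mM, 0 to 1 at 3.5 mM, 3 to 4 at 3.5 against 1.4 mM, 3 to 6 over the steps and 9 to 10 pairs; they stayed at 2 at 0.35 mM and 4 at 2.1 mM. Signs changed among Gsr at 3.5 mM (-0.011 to 0.35), Gss at 0.35 mM (-0.055 to 0.12) and 0.7 mM (-0.018 to 0.17), and Gss at 3.5 against 1.4 mM (-0.19 to 0.0065). Calls were gained without replicate 1 of 2.8 mM (Gclm at 0.14 mM, 0.0309) and without replicate 3 of 0.35 mM (Gss at 3.5 mM, 0.0482) or of 3.5 mM (0.0353). Gss at 1.4 mM was lost without replicate 2 of 0 mM (0.0551) or 2 (0.0821) or 3 (0.0807) of 1.4 mM, and Gsr at 1.4 mM without its replicate 2 (0.0783). The cause of these changes was not tested. Steps and the F test were not refitted on the arrays compared alone, and the low spike level holds no dose from 1.4 mM.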
